A study of Mus musculus with 17 samples.

Results

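The genes described are 34 transcripts of mature oligodendrocytes and myelin, from the major myelin protein genes Mbp and Mobp to the lineage regulators Sox10 and Myrf. They were taken by gene symbol from a table of 48440 genes measured in the frontal cortex of adult mice, and all 34 symbols were found there. Of these, 33 reached 1 TPM (a transcript level corrected for length and scaled to the same total in every library) in at least 8 libraries, as did 14144 genes of the whole table. Nipal4, which encodes a NIPA-like membrane protein, averaged 0.997 TPM after Poly(I:C) and 1.05 TPM after saline and is given by its level only. The tissue came from 17 male C57BL/6J mice at postnatal day 189. Dams of 9 mice had been injected intraperitoneally with 20 mg/kg Poly(I:C), a synthetic double-stranded RNA that triggers antiviral immunity, on gestational day G12.5, and dams of 8 mice had received saline. Poly(I:C) was given to the pregnant dam and not to the offspring, and the labels mention 11 dams without tying offspring to litters, so littermates enter the p-values as independent animals.

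Oligodendrocytes wrap axons in myelin, a stack of compacted membrane rich in cholesterol and galactosylceramide that speeds conduction of the nerve impulse. Compaction needs basic and tetraspan membrane proteins, the axon-facing layers carry adhesion molecules, and Sox10 with Myrf switches the myelin genes on as precursors mature. Grey matter of the cortex is thinly myelinated whereas the white matter beneath it and the fibre bundles of the striatum are densely myelinated, so in bulk tissue these transcripts depend on how many oligodendrocytes the piece holds. Fewer oligodendrocytes and less RNA per oligodendrocyte cannot be told apart here.

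Of all TPM, the 34 genes took 0.269% ± 0.0499 after Poly(I:C) (SD, n = 9) and 0.251% ± 0.0184 after saline (SD, n = 8). Mbp, whose basic protein joins the cytoplasmic faces of compact myelin, was the most abundant, with a mean of 1278 ± 278 TPM after Poly(I:C) (SD, n = 9) and a mean of 1155 ± 99.4 TPM after saline (SD, n = 8). Mobp, another basic protein of compact myelin, came next, with a mean of 240.1 ± 62.7 TPM after Poly(I:C) (SD, n = 9) and of 218 ± 23.9 TPM after saline (SD, n = 8). A mean over all libraries of at least 100 TPM was reached by 5 of the 34 genes and 10 lay below 10 TPM. Markers of neurons summed to between 9232 and 10354 TPM in the Poly(I:C) libraries and between 9254 and 10295 TPM in the saline libraries, and none of the 15 was listed at 0 in any library.

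The upstream sequences of 4 genes are shown to set Mog and Cnp, the gene of the list that followed Mog most closely over the libraries, beside the genes with the smallest p in each direction, Prr5l and Gsn. They are the 250 bases before the annotated start on the gene's strand, from RefSeq on GRCm38.p6, and for Prr5l and Gsn the most upstream of 3 entries. Capitals mark the letters ACAAAG, a core of SOX protein sites, CTGGNAC, a core of Myrf sites, or TATAAA, on either strand. Mog lies at chr17:37023399-37023648 (minus strand), Cnp at chr11:100574689-100574938 (plus strand), Prr5l at chr2:101883028-101883277 (minus strand) and Gsn at chr2:35256109-35256358 (plus strand).
Mog: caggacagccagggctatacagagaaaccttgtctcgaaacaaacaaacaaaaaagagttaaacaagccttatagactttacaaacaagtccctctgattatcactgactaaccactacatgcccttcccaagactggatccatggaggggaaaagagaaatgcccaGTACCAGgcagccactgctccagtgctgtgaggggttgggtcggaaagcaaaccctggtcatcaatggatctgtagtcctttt
Cnp: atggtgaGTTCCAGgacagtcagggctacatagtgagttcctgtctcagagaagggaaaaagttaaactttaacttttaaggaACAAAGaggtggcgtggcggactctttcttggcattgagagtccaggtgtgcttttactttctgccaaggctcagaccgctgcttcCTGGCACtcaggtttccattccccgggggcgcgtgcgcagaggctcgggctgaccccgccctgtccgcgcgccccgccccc
Prr5l: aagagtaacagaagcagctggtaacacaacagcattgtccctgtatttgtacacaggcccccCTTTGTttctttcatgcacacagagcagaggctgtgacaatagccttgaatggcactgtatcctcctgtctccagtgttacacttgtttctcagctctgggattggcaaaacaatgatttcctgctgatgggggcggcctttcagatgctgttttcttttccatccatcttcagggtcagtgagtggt
Gsn: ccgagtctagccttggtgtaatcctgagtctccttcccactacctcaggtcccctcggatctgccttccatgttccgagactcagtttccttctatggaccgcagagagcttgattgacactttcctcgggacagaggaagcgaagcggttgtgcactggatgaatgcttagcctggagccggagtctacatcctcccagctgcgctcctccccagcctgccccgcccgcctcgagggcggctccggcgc

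The Mog window held the Myrf letters 1 time, and the Cnp window held them 2 times and the SOX letters 1 time. The printed Prr5l window held the SOX letters 1 time, and the printed Gsn window held none of the 3. Entries not printed here held the Myrf letters for Gsn and TATAAA for Prr5l. Of the 34 genes, 24 had 34 promoter entries between them, with chromosome 18, which holds Mbp, left out for the list only. The SOX letters occurred in 10 of these 34 windows (29.4%) and in 16.5% of all 32851 windows of the same length, the Myrf letters in 12 (35.3%) and 16.1%, and TATAAA in 3 (8.82%) and 12.4%. These are matches of letters and say nothing of binding. All 34 genes are annotated as protein-coding in GENCODE M21 on GRCm38, Prr5l on chromosome 2 from 101714285 to 101883027 and Mog on chromosome 17 from 37010743 to 37023398. Cnp (chromosome 11, 100574904 to 100591729) overlaps Dnajc7 on the opposite strand, Evi2a overlaps Nf1, Nkx6-2 overlaps Inpp5a and Plekhh1 overlaps Pigh, all on opposite strands, and Trf overlaps Gm20425 on its own strand. The strand setting of the counting is not given in the sources used here, so the levels of these 5 may include reads of their neighbours.

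Poly(I:C) replicate 7 stood apart before any comparison of groups. It held the highest value of all 17 libraries for 31 of the 34 genes, whereas it was highest for 8.20% of all tested genes. Its level was 1.51 times the median of the other 16 libraries for the middle gene, and ran from 0.925 times for Prr5l to 1.95 times for Opalin. Car2, Enpp2 and Prr5l were the 3 genes with their maximum elsewhere. Poly(I:C) replicate 5 stood at the other end, with the lowest value of all libraries for 23 of the 34 genes and for 15.9% of all tested genes. Its middle gene lay at 0.801 times the median of the other 16 libraries. The spread was not tested between the groups: 30 of 33 tested genes had the larger SD in the Poly(I:C) group, beside 59.2% of all tested genes. The count was 21 of 33 without replicate 7 (56.4% of all tested genes) and 12 of 33 without replicates 7 and 5 (52.9%).

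**Figure D1:**
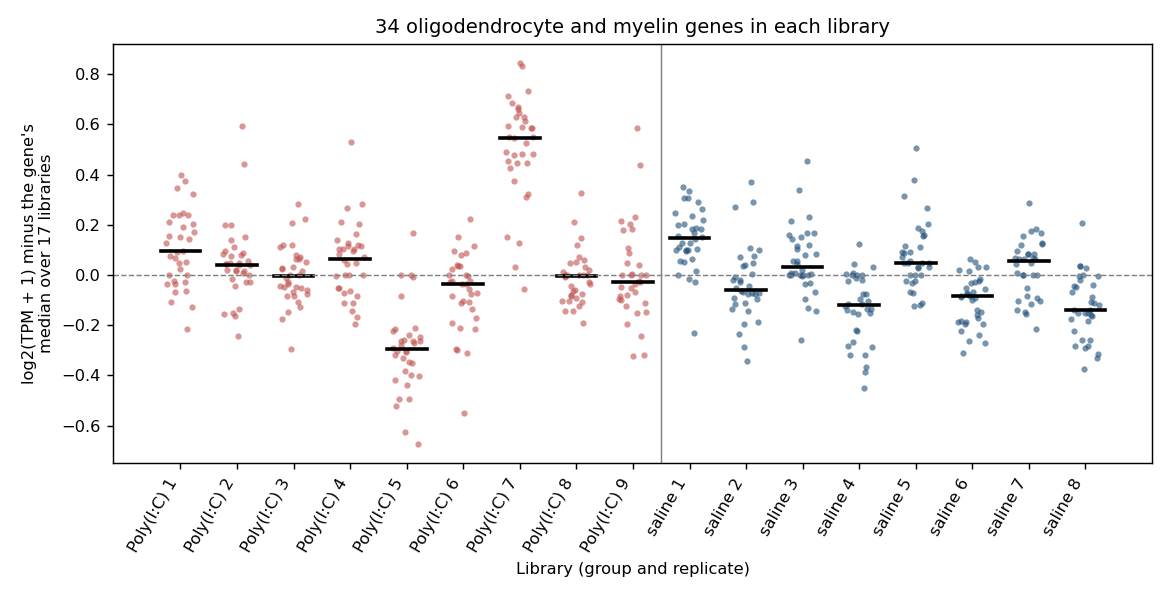
Each point is 1 of the 34 genes in 1 library, as log2(TPM + 1) minus that gene's median over the 17 libraries; the black bar is the median of the genes, red is Poly(I:C) and blue is saline. Nearly all genes lie above their median in Poly(I:C) replicate 7 and below it in Poly(I:C) replicate 5, with the other 15 libraries between.

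Transcripts of striatal projection neurons were also high in Poly(I:C) replicate 7. Of 15 striatal markers, 11 had their maximum there, among them Drd2 and Adora2a, receptors for dopamine and adenosine, with 7.57 and 5.41 TPM where the other 16 libraries had medians of 1.27 and 1.19 TPM. Of those 16 libraries, Poly(I:C) replicate 4 was highest for both receptors, with 3.12 and 2.10 TPM. The mean log2 level of the tested myelin genes was 4.805 in replicate 4 and 5.251 in replicate 7. The striatal markers summed to 306.8 to 491 TPM in the Poly(I:C) libraries and 306 to 347 TPM in the saline libraries. Isl1 was the only one of the 15 listed at 0 in any library. The part that striatal tissue plays in the myelin values of this library was not tested. Saline replicate 7, which had the olfactory bulb genes Cdhr1 at 11.0 TPM and Doc2g at 21.8 TPM, lay within the saline range for the myelin genes, with a mean log2 level of 4.77 where the group ran from 4.61 to 4.89. Results are therefore given with all libraries and without replicate 7 of both groups.

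No tested gene of the list met the threshold for a difference between the prenatal groups. By limma on log2(TPM + 1) with Benjamini-Hochberg adjustment over 14144 genes, 0 of 33 passed an adjusted p of 0.05 (0% of all tested genes passed), and their adjusted p ran from 0.587 to 0.998. An unadjusted p under 0.05 was reached by 0 of 33 genes, where 8.75% of all tested genes reached it. Under that limma limit came 3 genes with quantile normalization (Prr5l, Ermn and Ugt8a, 7.32% of all tested genes) and Prr5l alone with median-of-ratios scaling (7.34%), with the replicate number as a block (8.34%) and without replicate 7 of both groups (5.79%). With single libraries left out, Prr5l came under it without Poly(I:C) replicate 4 (9.94%) or 7 (8.24%) and without saline replicate 2 (8.08%) or 3 (9.8%). Ugt8a did so without Poly(I:C) replicate 5 (8.05%). The exact permutation test on ranks also gave 0 of 33 after adjustment and 0 of 33 under an unadjusted p of 0.05, where 8% of all tested genes reached it. In 0 of 33 genes did the groups fail to overlap, which happened in 0.0283% of all tested genes.

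Without further scaling, the mean of log2(TPM + 1), to which higher and lower refer in the counts of genes, was higher in the Poly(I:C) group for 27 of 33 genes and lower for 6, with a median difference of 0.047 on the log2 scale. Over all tested genes 29.0% were higher and the median was -0.035. After median-of-ratios scaling, which levels the median gene between libraries, 31 of 33 genes (93.9%) and 49.1% of all tested genes were higher, and the medians were 0.082 and -0.0014. Without replicate 7 of both groups 15 of 33 genes were higher and the median was -0.0043, beside 33.4% higher and a median of -0.026 over all tested genes. Without Poly(I:C) replicate 7 alone 13 of 33 were higher and the median was -0.019, beside a median of -0.036 over all tested genes. The number of genes with a higher value, without further scaling, thus rested on Poly(I:C) replicate 7. Leaving out any other single library gave between 23 and 30. Median-of-ratios scaling was not combined with leaving out replicate 7.

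**Figure D2:**
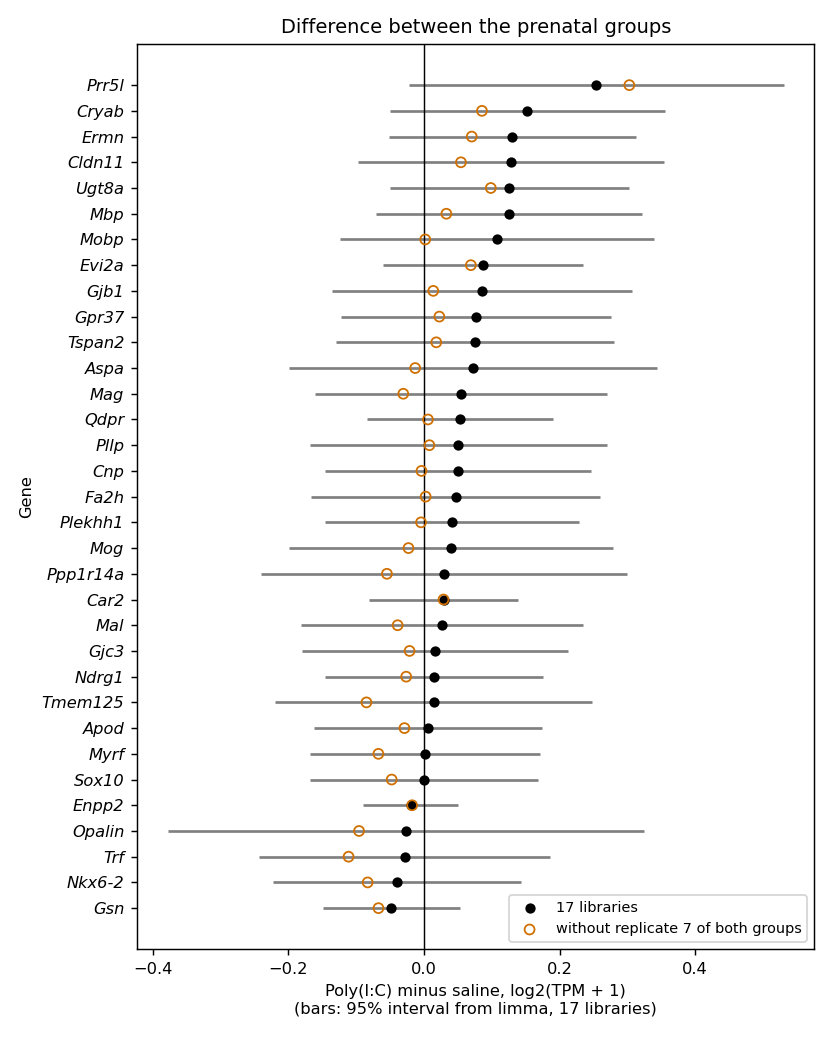
Filled points are the differences of the 33 tested genes on the log2(TPM + 1) scale, Poly(I:C) minus saline, with 95% intervals from limma over 17 libraries; open points leave out replicate 7 of both groups. Each interval includes 0, and without replicate 7 the difference is larger for Prr5l, nearly the same for Car2 and Enpp2, and shifted toward lower values for the other 30 genes.

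Among the 11 genes of compact myelin and its adhesive or junctional layers, 10 had a higher mean log2 level in the Poly(I:C) group and 6 did so without replicate 7 of both groups. Mbp ran from 962 to 1966 TPM with a median of 1220.00 TPM in the Poly(I:C) libraries and from 1026 to 1334 TPM with a median of 1128 TPM in the saline libraries. The saline range lay wholly inside the Poly(I:C) range, whose highest library was replicate 7 and whose next highest held 1336 TPM. Its difference of 0.13 ± 0.094 on the log2 scale (SE, limma adjusted p = 0.696) was 0.033 without replicate 7 of both groups. Mobp spanned 174 to 396 TPM around a median of 229.7 TPM after Poly(I:C) and 182 to 262 TPM around a median of 218 TPM after saline. Again the saline libraries fell within the Poly(I:C) range, and the difference of 0.11 ± 0.11 (SE, limma adjusted p = 0.779) came to 0.0020 without replicate 7 of both groups.

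Mog, the outer-surface glycoprotein that marks the last stage of maturation, lay between 10.7 and 25.6 TPM (median 15.4 TPM) in the Poly(I:C) group and between 13.1 and 17.1 TPM (median 15.6 TPM) in the saline group. Poly(I:C) replicates 7 and 5 formed both ends of its range, and 4 of 9 Poly(I:C) libraries were above the saline median. The difference was 0.040 ± 0.11 (SE, limma adjusted p = 0.932), with a 95% interval from -0.20 to 0.28. Mag, the adhesion molecule of the axon-facing layer, averaged 76.5 ± 18.1 TPM after Poly(I:C) (SD, n = 9) and 72.5 ± 8.05 TPM after saline (SD, n = 8), and the phosphodiesterase Cnp, which keeps cytoplasmic channels open in myelin, averaged 61.2 ± 12.3 and 58.3 ± 5.23 TPM. Without replicate 7 of both groups the differences of Mog, Mag and Cnp were -0.023, -0.030 and -0.0036. Cldn11, the tight junction protein of the myelin sheath, averaged 37.6 ± 8.02 TPM after Poly(I:C) (SD, n = 9) and 34.02 ± 5.13 TPM after saline (SD, n = 8), and 8 of 9 Poly(I:C) libraries exceeded the median of the saline group.

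The tetraspan proteolipids Mal and Pllp averaged 52.9 and 26.3 TPM in the Poly(I:C) group and 51.5 and 25.0 TPM in the saline group. Tspan2, a tetraspanin of maturing oligodendrocytes, averaged 16.2 and 15.1 TPM in the same order. Ermn, a cytoskeletal protein of the late myelinating stage, covered 11.3 to 19.5 TPM (median 14.5 TPM) after Poly(I:C) and 11.6 to 15.2 TPM (median 12.9 TPM) after saline. Its groups overlapped, and the difference was 0.13 ± 0.087 (SE, limma adjusted p = 0.663). Opalin, a membrane glycoprotein of the oligodendrocyte, had the widest spread of the list, from 4.89 to 14.5 TPM, a 2.96-fold range. Its mean TPM was 8.25 after Poly(I:C) and 8.08 after saline, but its mean of log2(TPM + 1) differed by -0.027, the 1 negative difference of these 11 genes, and that sign turned with median-of-ratios scaling (0.0066), quantile normalization and a fit with the replicate number as a block.

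**Figure D3:**
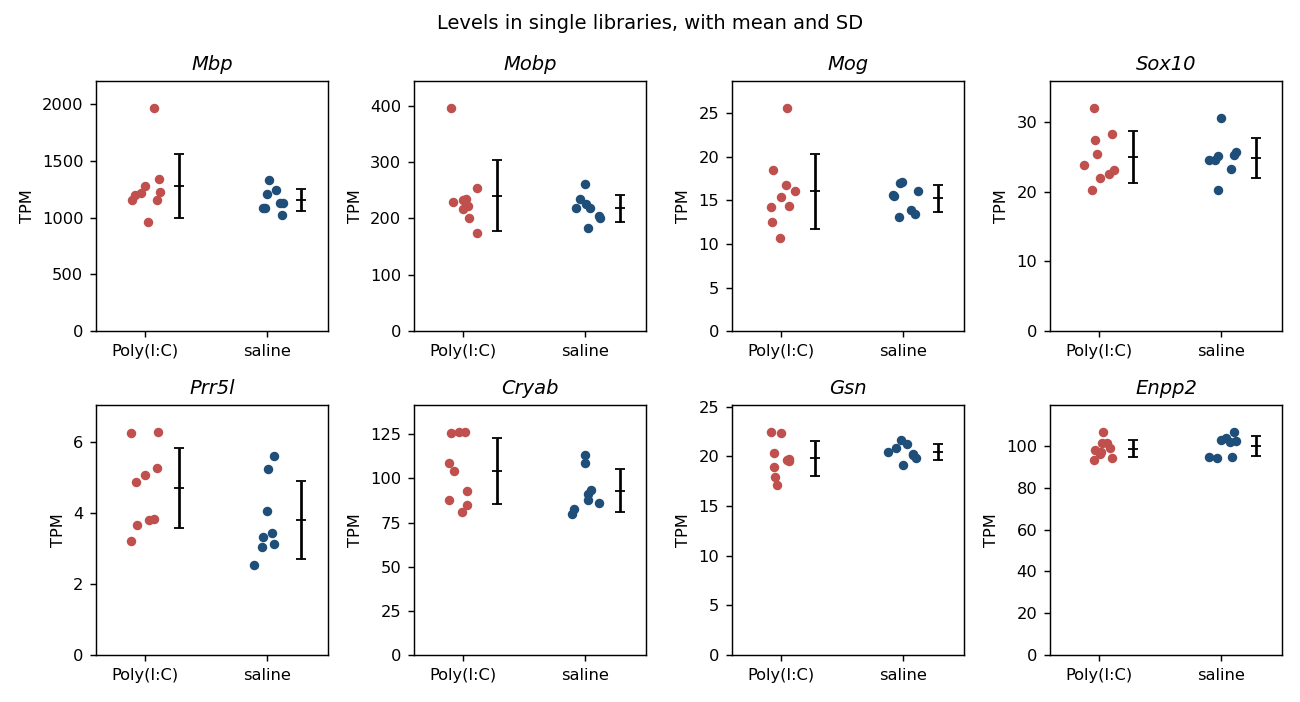
TPM of 8 genes in each library, with the mean and SD of each group drawn beside the points (9 Poly(I:C), 8 saline libraries). The groups overlap in every panel; 1 Poly(I:C) library lies far above the rest for Mbp, Mobp and Mog, and Enpp2 hardly varies.

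Of 4 genes of lipid and acetate metabolism, 3 had a higher mean log2 level after Poly(I:C), and 2 without replicate 7 of both groups. Ugt8a, which makes galactosylceramide, spanned 7.20 to 12.6 TPM (median 9.26 TPM) in the Poly(I:C) libraries and 7.10 to 9.56 TPM (median 8.86 TPM) in the saline libraries. The ranges overlapped, with a difference of 0.13 ± 0.085 (SE, limma adjusted p = 0.665) that was 0.099 without replicate 7 of both groups. Fa2h, a fatty acid 2-hydroxylase, averaged 15.98 and 15.4 TPM, and Aspa, which releases acetate from N-acetylaspartate for lipid synthesis, averaged 6.53 and 6.06 TPM (Poly(I:C) first). Enpp2, the secreted enzyme autotaxin, was the steadiest gene of the list. It ran from 93.6 to 107.0 TPM (median 98.1 TPM) after Poly(I:C) and from 94.1 to 106.7 TPM (median 102 TPM) after saline, a 1.14-fold range over all libraries. Poly(I:C) replicate 7 held 1.03 times the median of the other 16 libraries for Enpp2. Its difference of -0.020 ± 0.034 (SE, limma adjusted p = 0.878) became 0.017 after median-of-ratios scaling.

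The connexins Gjc3 and Gjb1, which form gap junctions of the oligodendrocyte, averaged 13.2 ± 2.31 and 7.23 ± 1.61 TPM after Poly(I:C) (SD, n = 9) and 13.02 ± 1.96 and 6.68 ± 0.963 TPM after saline (SD, n = 8). Both overlapped between the groups, and their log2 differences were 0.016 and 0.086. Of the 3 transcription regulators, Sox10 ranged over 20.2 to 32.0 TPM (median 23.8 TPM) in the Poly(I:C) libraries and 20.2 to 30.5 TPM (median 24.8 TPM) in the saline libraries. These nearly equal ranges gave a difference of -0.00052 ± 0.081 (SE, limma adjusted p = 0.998), which came to -0.048 without replicate 7 of both groups and turned to 0.035 when scaled by median of ratios. Myrf, the membrane-bound activator of myelin genes, averaged 17.02 TPM after Poly(I:C) and 16.8 TPM after saline. Nkx6-2, a homeodomain factor of maturing oligodendrocytes, lay between 4.24 and 7.98 TPM (median 5.45 TPM) after Poly(I:C) and between 4.83 and 7.23 TPM (median 5.58 TPM) after saline. Its difference was -0.040 ± 0.088 without further scaling (SE, limma adjusted p = 0.911) and turned to 0.0027 with quantile normalization.

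Of 6 transport, redox and stress genes, 4 had a higher mean log2 level after Poly(I:C), and 3 without replicate 7 of both groups. Trf, the iron carrier transferrin, ran from 71.6 to 147 TPM (median 92.8 TPM) in the Poly(I:C) group and from 85.8 to 106 TPM (median 98.4 TPM) in the saline group. Its difference of -0.028 ± 0.10 (SE, limma adjusted p = 0.948) was -0.11 without replicate 7 of both groups and 0.0088 after median-of-ratios scaling. Cryab, a small heat shock protein, spanned 81.1 to 127 TPM (median 104.4 TPM) after Poly(I:C) and 79.8 to 114 TPM (median 89.7 TPM) after saline, and 6 of 9 Poly(I:C) libraries exceeded the saline median. The difference was 0.15 ± 0.097 (SE, limma adjusted p = 0.649), or 0.086 without replicate 7 of both groups. Gsn, the actin-severing protein gelsolin, had the smallest p among genes with a lower value. It lay between 17.1 and 22.5 TPM (median 19.6 TPM) in the Poly(I:C) libraries and 19.2 and 21.7 TPM (median 20.3 TPM) in the saline libraries, a difference of -0.048 ± 0.048 (SE, limma adjusted p = 0.775). The lipocalin Apod averaged 131 and 129 TPM, the carbonic anhydrase Car2 131 and 128 TPM, and Qdpr, which recycles tetrahydrobiopterin, 103 and 98.4 TPM (Poly(I:C) first).

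Prr5l, a protein that binds the mTORC2 kinase complex, had the smallest p of the list. It ranged from 3.22 to 6.29 TPM (median 4.88 TPM) in the Poly(I:C) libraries and from 2.53 to 5.61 TPM (median 3.39 TPM) in the saline libraries. The groups overlapped over most of their range, although 8 of 9 Poly(I:C) libraries lay above the saline median. Its difference was 0.25 ± 0.13 (SE, limma adjusted p = 0.587), with a 95% interval from -0.023 to 0.53, and unlike most of the list it was not smaller without replicate 7 of both groups, at 0.30 (limma adjusted p = 0.852). It was between 0.195 and 0.325 whichever single library was left out. The remaining genes were the orphan receptor Gpr37 (11.5 and 10.8 TPM, Poly(I:C) first), Ndrg1 (31.5 and 30.98 TPM), the phosphatase inhibitor Ppp1r14a (7.99 and 7.67 TPM), Plekhh1 (4.57 and 4.39 TPM), Evi2a (16.6 and 15.5 TPM) and Tmem125 (3.07 and 2.97 TPM). For these 6 genes the log2 differences ran from 0.014 for Tmem125 to 0.087 for Evi2a, and limma adjusted p from 0.720 to 0.977.

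Each tested gene was compared with Mog over the 17 libraries. Mog served as reference because it marks mature oligodendrocytes in the brain. Pearson's r on log2(TPM + 1) had a median of 0.788 over the other 32 genes and was positive for 31 of them, beside a median of 0.125 over all tested genes. By permutation with 100000 resamples and adjustment over 14143 genes, 16 of 32 passed an adjusted p of 0.05 with a positive r, where 0.735% of all tested genes did. Cnp was closest to Mog, with r = 0.96 (permutation p = 1e-05, the smallest the resamples can give; adjusted p = 0.0157) and Spearman's rho = 0.909 (permutation adjusted p = 0.0283). By Spearman's rho 4 of 32 genes passed, where 0.247% of all tested genes did: Cnp, Pllp (r = 0.931, rho = 0.865), Tspan2 (r = 0.926, rho = 0.833) and Mal (r = 0.890, rho = 0.853). Their permutation adjusted p ran from 0.0157 to 0.017 for r and from 0.0283 to 0.0471 for rho. Ndrg1 lay between Tspan2 and Mal by r, at 0.892 (permutation adjusted p = 0.017), and missed the threshold by rho, at 0.787 (permutation adjusted p = 0.06). With median-of-ratios scaling 12 of 32 genes passed by r (0.601% of all tested genes) and the median r was 0.780. All values share the TPM scale, which ties genes of 1 library together.

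Poly(I:C) replicates 7 (25.6 TPM) and 5 (10.7 TPM) were the libraries farthest from the median of Mog. Without them r was positive for 29 of 32 genes and its median was 0.444, against 0.788 with all libraries and 0.153 over all tested genes. An unadjusted permutation p under 0.05 with a positive r was reached by 11 of 32 genes (10.3% of all tested genes), where 29 of 32 reached it with all libraries (11.1%). The size of r thus depended on those 2 libraries. They were picked as the ends of Mog's own range, and leaving out such ends tends to lower r for genes that follow Mog. How much of the drop this choice accounts for was not tested. Cnp had r = 0.866 (permutation p = 3e-05, adjusted p = 0.182) without both libraries and Pllp r = 0.843 (permutation p = 9e-05, adjusted p = 0.182).

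Counts of adjusted calls say less, because the smallest p that 100000 resamples can give means that at least 3 genes must pass together or none can. Without both libraries 0 of 32 genes and 0 of 14143 genes passed. Without replicate 5 alone 0 of 32 and 0 of 14143 genes passed as well, although the median r was 0.753 and 27 of 32 genes had an unadjusted permutation p under 0.05 (7.46% of all tested genes). Without replicate 7 alone 8 of 32 genes passed (1.49% of all tested genes), and the median r was 0.620. With any other single library left out, between 9 and 17 of 32 genes passed and the median r lay between 0.785 and 0.835. The lowest of these counts were 10 without Poly(I:C) replicate 9 (0.587% of all tested genes), 9 without saline replicate 1 (0.728%), 10 without saline replicate 5 (0.523%) and 9 without saline replicate 6 (0.516%). Within the Poly(I:C) group the median r was 0.893 over 9 libraries and within the saline group 0.555 over 8 libraries. By exact permutation 0 of 32 and 0 of 14143 genes passed in either. In the saline group the smallest possible permutation p was 2.48e-05, so at least 8 genes would have had to pass together.

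Some genes of the list did not track Mog. Prr5l had r = -0.0497 and rho = -0.0147, Cryab r = 0.092 and rho = -0.0049, and Enpp2 r = 0.247 and rho = 0.248, with permutation adjusted p of 0.958, 0.911 and 0.707 for r. Sox10 had r = 0.518 (permutation adjusted p = 0.307) and rho = 0.252 over all libraries, and r = -0.0513 without Poly(I:C) replicates 7 and 5. Gjc3, at r = 0.494, and Car2, at r = 0.543, also missed the threshold (permutation adjusted p = 0.357 and 0.294).

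**Figure D4:**
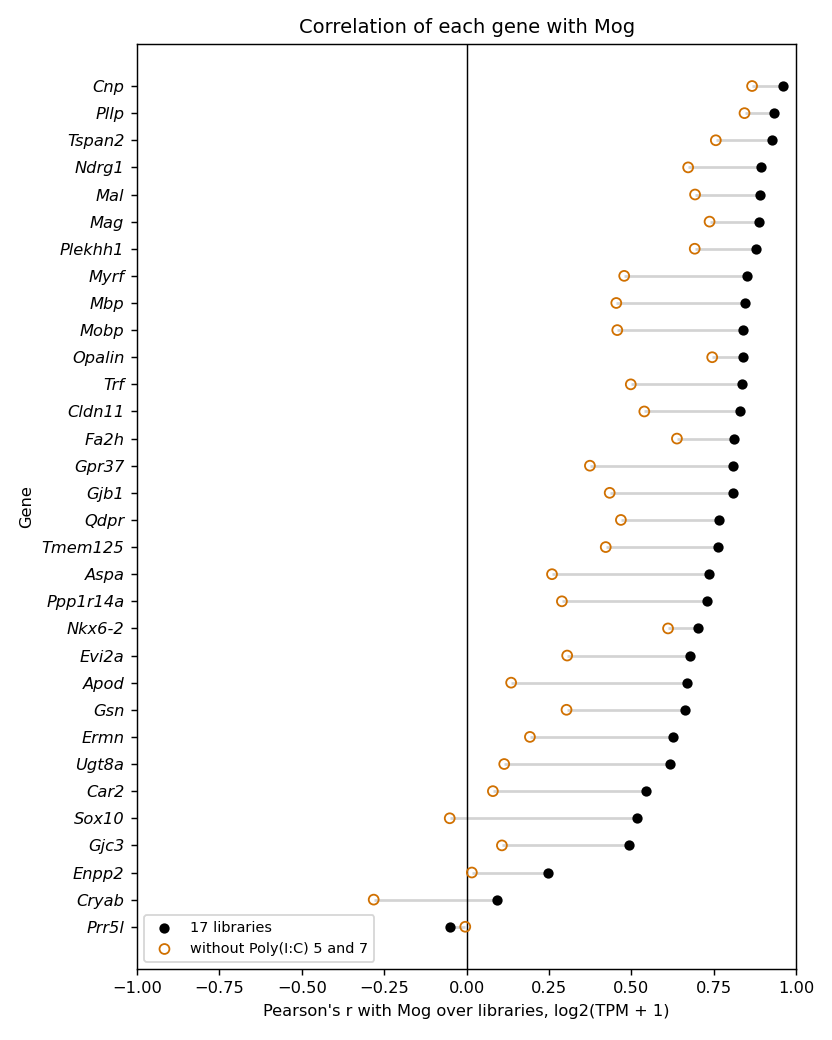
Pearson's r of each of the other 32 tested genes with Mog on the log2(TPM + 1) scale, over 17 libraries (filled) and without Poly(I:C) replicates 5 and 7 (open), sorted by the filled value. Cnp (0.96 and 0.866) and Pllp (0.931 and 0.843) have the highest values in both; Sox10, Cryab and Prr5l lie below 0 without the 2 libraries.

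Other genes of the lineage showed no called difference either, as 0 of 14144 tested genes did. Over all tested genes 29% were higher without further scaling, 49.1% after median-of-ratios scaling and 33.4% without replicate 7 of both groups. Of 39 tested genes of mature oligodendrocytes outside the list, 0 passed limma's adjusted p and 28 were higher without further scaling (33 after median-of-ratios scaling, 20 without replicate 7 of both groups), with the chemokine-like membrane protein gene Cmtm5 at 41.2 and 38.3 TPM, the guanine exchange factor Dock10 at 7.63 and 8.35 TPM and the tubulin-binding protein Tppp at 366.8 and 372 TPM (Poly(I:C) first). Poly(I:C) replicate 7 was highest for 27 of the 40 genes of that list. Of 20 precursor genes 0 passed, 4 were higher and 16 lower without further scaling (7 higher after median-of-ratios scaling), and replicate 7 was highest for 2 and lowest for 5 of them. Their leading members were Pcdh15 (5.71 and 6.96 TPM) and Emid1 (2.69 and 3.18 TPM), and the most abundant was the proteoglycan Cspg5 (219.8 and 227 TPM).

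Of 19 enzymes that make or break down myelin sphingolipids 0 passed, 9 were higher and 10 lower without further scaling (13 higher after median-of-ratios scaling), among them the sphingomyelin synthase Sgms1 (21.1 and 19.3 TPM), the ceramidase Asah1 (32.3 and 33.9 TPM) and the saposin precursor Psap (669.9 and 673.5 TPM). Of 20 cholesterol synthesis enzymes 0 passed and 17 were lower without further scaling (14 after median-of-ratios scaling), with Lss at 16.3 and 19.8 TPM, Pmvk at 44.1 and 48.3 TPM and Hmgcs1 at 96.5 and 103.9 TPM. Poly(I:C) replicate 5, lowest for most myelin genes, was lowest for 11 of these 20 enzymes as well (15.9% of all tested genes). Over all tested genes 0 passed, and 29% were higher without further scaling and 49.1% after median-of-ratios scaling. Axonal partners of the sheath gave 0 of 19, with 6 higher and 13 lower (13 higher after median-of-ratios scaling), including the Nogo receptor homologue Rtn4rl2 (72.2 and 78.9 TPM), the paranodal adhesion molecule Cntn1 (86.7 and 92.8 TPM) and Cadm3 (371 and 374 TPM).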

How the data were processed

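Polyadenylated RNA of 17 libraries, 9 from Poly(I:C) and 8 from saline offspring, was read from 1 end over 100 bases in stranded libraries, per the labels' protocols. The authors deposited TPM values per gene, rounded, with no counts. The labels state a sequencing depth of 25 M reads for all libraries alike, but the reads counted per library are not known from TPM, and no counting interval was computed. The submitters' processing notes list mm10, RSEM 1.2.31, STAR 2.5.1b and Trim Galore 0.4.0. For annotation, strand setting and filters, the choice is not given in the sources used here. RSEM shares reads among matching transcripts by estimation.

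Columns were tied to samples by name. Of 48440 identifiers 48058 matched a symbol without the version suffix. Genes with at least 1 TPM in at least 8 libraries were tested on log2(TPM + 1), which understates changes of low genes, two-sided, Benjamini-Hochberg adjusted over all tested genes, by lmFit and trended eBayes of limma 3.58.1 (R 4.3.3); the procedure was tested on simulated data. Ranks were tested by exact permutation over 24310 splits. Correlations with Mog were planned with adjustment over the list and were adjusted over all tested genes instead. Other steps used matplotlib 3.10.9, scipy 1.17.1, pandas 2.3.3, numpy 2.4.6 and Python 3.11.15. No 2 libraries were identical.

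Named genes are all members, plus, per other list, the 2 of smallest p and the most abundant, and markers of libraries that stood apart. Planned proteins were not used here; the promoters of Mog and Cnp were chosen after their values were seen. The members and lists were chosen with earlier results of these data known. Alternatives were pseudocounts of 0.1 and 0.5, no filter, at least 5 TPM, median-of-ratios and quantile scaling, an adjusted p of 0.1, robust eBayes, the replicate block, the rank test, and leaving out libraries. Astrocyte, microglia, olfactory, choroid plexus, meningeal and red cell lists were also measured.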

Additional observations from a re-analysis of the deposited data

Results flagged for a closer look

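In 6 of 68 group-wise checks of the 34 genes (Dixon's ratio of the gap to the range on the log2 scale, against its 95% critical value), 1 library lay outside its group, and in all 6 it was Poly(I:C) replicate 7 as the highest. Chance marks about 1 in 20 such groups, and the genes share their libraries. Its values were 1966 TPM for Mbp (next 1336 TPM), 396 TPM for Mobp (next 254 TPM), 120.3 TPM for Mag (next 82.9 TPM), 80.2 TPM for Mal (next 56.6 TPM), 24.7 TPM for Myrf (next 17.5 TPM) and 18.95 TPM for Gjc3 (next 13.6 TPM).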

How the results depend on the processing

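Under every alternative run, 0 of the tested genes of the list passed, including the replicate block, in which 27 of 33 were higher and Poly(I:C) replicate 9, without a partner, adds nothing. Hardly any gene of the whole table passed either. Of 14144 tested genes, 2 passed with median-of-ratios scaling, 2 with the replicate block and 1 without saline replicate 4, and 0 passed in the other limma fits. Replicate numbers gave no sign of pairing the samples, which these values cannot exclude: same-numbered libraries correlated between -0.221 and 0.0818 in their deviations, and 1 of 8 matched its own number best. The count of higher genes was 15 without replicate 7 of both groups, and ranged from 13 to 30 with single libraries left out. The count following Mog was 3 without replicate 7 of both groups (0.24% of all tested genes), 0 without the 2 libraries farthest from the median of Mog and 0 in either group alone, and ranged from 0 to 17 with single libraries left out. Where it was 0, no gene of the whole table passed, so these counts do not measure how far r moved. Signs turned without replicate 7 of both groups for Mog (-0.023), Mag (-0.030), Cnp (-0.0036), Mal (-0.039), Gjc3 (-0.021), Aspa (-0.013), Myrf (-0.067), Plekhh1 (-0.0043), Ndrg1 (-0.026), Ppp1r14a (-0.055), Apod (-0.029) and Tmem125 (-0.085). They turned with median-of-ratios scaling for Opalin (0.0066), Trf (0.0088), Sox10 (0.035) and Enpp2 (0.017), with quantile normalization for Opalin (0.022), Nkx6-2 (0.0027), Sox10 (0.034) and Enpp2 (0.0053), and with the replicate block for Opalin (0.017) and Apod (-0.019). With single libraries left out, differences ranged from -0.045 to 0.10 for Mog, -0.030 to 0.096 for Mag, -0.019 to 0.11 for Cnp, -0.050 to 0.074 for Mal, -0.047 to 0.046 for Gjc3, -0.13 to 0.046 for Opalin, -0.0066 to 0.16 for Aspa, -0.020 to 0.089 for Fa2h, -0.098 to 0.0028 for Nkx6-2, -0.11 to 0.021 for Trf, -0.064 to 0.039 for Myrf, -0.015 to 0.083 for Plekhh1, -0.042 to 0.051 for Ndrg1, -0.045 to 0.041 for Sox10, -0.044 to 0.11 for Ppp1r14a, -0.051 to 0.039 for Apod, -0.057 to 0.064 for Tmem125 and -0.015 to 0.11 for Pllp. The cause of these turns was not tested. TPM keeps no depth, so counting error cannot be separated from the spread between mice.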

Other observations

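Other cell types gave no called difference, and 0 of 14144 tested genes passed. Over all tested genes 29% were higher without further scaling, 49.1% after median-of-ratios scaling and 33.4% without replicate 7 of both groups. By the mean of log2(TPM + 1) without further scaling, 6 of 15 astrocyte genes were higher (12 after median-of-ratios scaling), with S100b at 108 and 103 TPM, Slc1a2 at 401 and 388 TPM and Aldoc at 823.5 and 824 TPM (Poly(I:C) first throughout). Of 15 microglia genes 6 were higher (12 after that scaling), with P2ry13 at 8.64 and 8.07 TPM, Fcrls at 15.2 and 16.1 TPM and C1qb at 78.3 and 77.9 TPM. All 13 tested striatal genes were higher (11 without replicate 7 of both groups), led by Rasd2 at 50.7 and 45.7 TPM and Ppp1r1b at 92.0 and 80.1 TPM. Of the 13, 3 followed Mog over 17 libraries (0.735% of all tested genes). Without Poly(I:C) replicates 7 and 5, 0 of the 13 and 0 of 14143 genes did, so that count does not measure how far r moved. All 10 tested olfactory genes were lower (8 without replicate 7 of both groups), with Etv1 at 51.1 and 60.3 TPM. All 13 tested meningeal genes were lower (11 after median-of-ratios scaling), with Slc6a13 at 3.98 and 4.75 TPM and Slc22a6 at 2.47 and 2.87 TPM. Of 3 tested choroid plexus genes 2 were lower, with Rarres2 at 3.36 and 4.14 TPM, and of 6 tested red cell genes 5 were higher, with Hbb-bt at 17.4 and 14.6 TPM. In none of these lists did a gene pass limma's adjusted p of 0.05.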
